A study of Danio rerio with 6 samples.

Results

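The genes described are liver enzyme genes that break down aromatic amino acids. Of 10 genes chosen by symbol from the deposited table, these 9 members are reported: tat, hpda, hgd, gstz1, fah, tdo2a, tdo2b, kmo and haao. Each symbol stood on 1 gene ID of the 24470 in the table. Messenger RNA came from whole larvae of zebrafish carrying Tg(Brn3C:mGFP), a transgene that places a membrane-bound green fluorescent protein in hair cells and was the genotype of both groups. One group of 3 libraries came from larvae given 4-octyl itaconate at 2.5 µM, an ester of the immune metabolite itaconate that enters cells, from 3 to 5 days post fertilization (48 h), and the other of 3 libraries from control larvae of the same age. What the control larvae received, and how many larvae made up a library, is not stated in the labels. The p-values therefore measure only the spread among these samples, and that spread may be technical. The series asks how itaconate bears on neuromasts, metabolism and Yap signalling; liver was not isolated.

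Liver cells use these enzymes to burn surplus aromatic amino acids. Tyrosine is cut in a chain of steps to fumarate and acetoacetate, both usable as fuel. Tryptophan is opened to kynurenine, from which further steps lead towards NAD or towards complete oxidation. In humans, loss of HGD causes alkaptonuria, and loss of FAH or TAT causes forms of tyrosinaemia. The tissue label of the libraries is the whole larva, so a change in the number of liver cells and a change in RNA per liver cell cannot be told apart.

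The library of treated replicate 1 stood apart from the others. It scored 79.5 on the second principal component of the log2 values, which held 6.83% of the variance, against -44.2 and -27.0 for treated replicates 2 and 3 and between -6.73 and 4.80 for controls. Totals of 14763897 to 23507208 reads were recovered from the normalized counts of the 5 libraries where this was done. The members stood on 20 to 2777 reads per gene and library in those libraries.

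All 9 members were higher in treated larvae, in every treated library against every control library. The increase ran from 2.75-fold for tdo2a to 15.8-fold for fah, with a median of 7.92-fold between group means. Each of the 9 passed an adjusted p of 0.05 in limma, a linear model fitted to log2(normalized count + 1) over all 20352 tested genes, with adjusted p of 1.92e-06 to 0.000527. Of all tested genes, 35.0% passed in the same direction, 37.4% were higher without overlap between groups, and 28.3% passed with a log2 fold change of at least 1, as all 9 members did. The members' median log2 fold change was 2.99, against 0.01 for all tested genes. Summed, the members held 7251, 7388 and 7789 normalized counts in treated replicates 1, 2 and 3 and 1109, 932 and 1401 in control replicates 1, 2 and 3. As a share of all normalized counts they were 6.09-fold higher, from 0.00568% ± 0.000911 to 0.0346% ± 0.00186 (SD, n = 3 per group; two-sided exact permutation p = 0.1, the smallest that 3 against 3 libraries can give). The sums of the treated libraries lay close together, although several single members, tdo2b and kmo among them, did not. The largest part of each sum was hgd, at 3113, 2216 and 2498 in treated replicates 1, 2 and 3. In control replicates 1, 2 and 3 it held 321, 256 and 412.

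**Figure D1:**
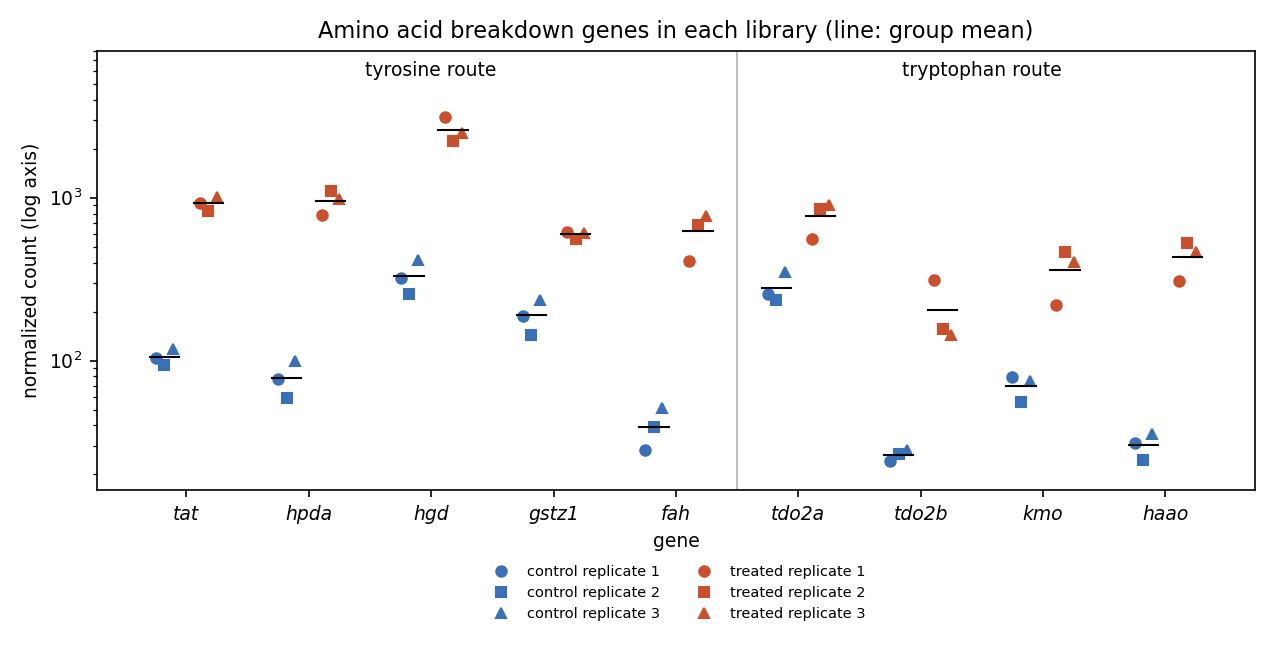
Normalized counts (log axis) of the 9 genes in each of the 6 libraries, with control libraries in blue, treated libraries in orange, marker shapes for replicates 1 to 3 and a line at each group mean. Every treated point lies above every control point of its gene, with the narrowest gap at tdo2a, whose lowest treated value was 1.61 times its highest control value.

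Tyrosine aminotransferase, encoded by tat (ENSDARG00000069630), removes the amino group of tyrosine, and in mammals its gene is a classic target of glucocorticoids. It stood at 925, 832 and 1014 in treated and at 103, 93.3 and 117 in control libraries. The coefficients of variation were 9.81% and 11.4%, and tat had the smallest adjusted p of the 9 genes, with a log2 fold change of 3.13 (SE 0.17, limma adjusted p = 1.92e-06).

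The next enzyme, hydroxyphenylpyruvate dioxygenase, makes homogentisate, and zebrafish carry its gene in duplicate as hpda and hpdb. For hpda (ENSDARG00000018351) the treated libraries held 784, 1102 and 980 and the control libraries 77.2, 58.9 and 98.7, a 12.2-fold rise (log2 fold change 3.61, SE 0.23, limma adjusted p = 3.32e-06). The duplicate hpdb, which is not a member, held 5807, 3205 and 3390 in treated and 558, 470.0 and 491 in control libraries, a rise of 8.16-fold (limma adjusted p = 7.32e-06). Treated replicate 1 was the lowest of its group for hpda and the highest for hpdb. The sources used here do not say how reads that match both copies were counted.

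Homogentisate is opened by hgd (ENSDARG00000058005), homogentisate dioxygenase. With 3113, 2216 and 2498 normalized counts in treated and 321, 256 and 412 in control libraries, it rose 7.92-fold (log2 fold change 2.99, SE 0.21, limma adjusted p = 4.75e-06). Treated replicate 1 was again the highest.

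The isomerase gene gstz1 (ENSDARG00000027984), a glutathione transferase that handles maleylacetoacetate, moved least among the tyrosine genes. Its counts were 617, 558 and 609.9 in treated and 187, 144 and 235 in control libraries, a rise of 3.15-fold (log2 fold change 1.67, SE 0.20, limma adjusted p = 9.76e-05). Treated libraries varied by 5.40% of their mean and control libraries by 24.1%.

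Fumarylacetoacetate hydrolase, the last enzyme of the route, is encoded by fah (ENSDARG00000101762), which rose most of the 9. Treated libraries held 409, 679 and 776 and control libraries 28.1, 38.9 and 50.7 (log2 fold change 3.94, SE 0.31, limma adjusted p = 8.23e-06). The lowest treated library, replicate 1, was still 8.06 times the highest control library.

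Most other genes of the list around tyrosine breakdown and the tetrahydrobiopterin cofactor rose as well. Of 13 tested, 11 rose and none fell, with a median log2 fold change of 1.43; spra and dnajc12 did not pass, at log2 fold changes of -0.47 and 0.20 (limma adjusted p = 0.169 and 0.613). The smallest p belonged to pcbd1, which recycles tetrahydrobiopterin and rose 4.85-fold (limma adjusted p = 5.55e-06), followed by hpdb. The cofactor gene qdpra, picked out after its values were seen, rose from 1138 ± 87.1 to 2503 ± 942 (log2 fold change 1.06, limma adjusted p = 0.00688). Pigment cells also make and use tetrahydrobiopterin and tyrosine, and 12 of 13 pigment cell markers rose (median log2 fold change 2.12), with pmelb not passing. Their summed level was 19062 to 32976 in treated and 7200 to 8214 in control libraries. The part of pigment cells in these values was not tested.

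Tryptophan enters the kynurenine route through tryptophan dioxygenase, which zebrafish encode in the paired genes tdo2a and tdo2b. For tdo2a (ENSDARG00000071429) the treated libraries held 562, 853 and 903 normalized counts and the control libraries 258, 234 and 349.6. This was the smallest rise of the 9, at 2.75-fold (log2 fold change 1.45, SE 0.23, limma adjusted p = 0.000527). For tdo2b (ENSDARG00000023176) the values were 314, 155 and 144 in treated and 24.1, 26.7 and 28.2 in control libraries, a rise of 7.77-fold. Its log2 fold change was 2.82 (SE 0.33), with a limma adjusted p of 8.21e-05. Without treated replicate 1, where tdo2b was 2.10 times the mean of the other treated libraries, its rise was 5.69-fold.

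Kynurenine is hydroxylated by kmo (ENSDARG00000009160), a mitochondrial monooxygenase. Its counts were 219.7, 463 and 403 in treated and 79.2, 55.6 and 74.7 in control libraries, a rise of 5.18-fold (log2 fold change 2.30, SE 0.30, limma adjusted p = 0.000162). The value of treated replicate 1 was 0.507 times the mean of the other treated libraries, the largest departure downwards among the 9 genes.

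The dioxygenase gene haao (ENSDARG00000076487) makes the precursor of quinolinate, from which NAD can be built. It stood at 308, 529 and 461 in treated and at 31.1, 24.4 and 35.2 in control libraries, a rise of 14.3-fold (log2 fold change 3.77, SE 0.27, limma adjusted p = 5.38e-06). No treated library came within 8.75 times the highest control library.

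Among 15 other tested gene IDs of tryptophan use, 9 rose, 2 fell and 4 did not pass, with a median log2 fold change of 1.14. The genes acmsd and aldh8a1, which lead the route away from quinolinate towards oxidation, rose 8.97-fold and 14.4-fold (limma adjusted p = 2.48e-05 and 2.56e-06). The genes of the enzymes next to kmo in the route were looked up after their values were seen. Those of kynu, which acts between kmo and haao, were 180.5, 1131 and 1506 in treated and 46.1, 48.9 and 47.9 in control libraries, a rise of 19.7-fold (limma adjusted p = 0.000921). Those of afmid, which acts between tryptophan dioxygenase and kmo, were 341, 242 and 252 in treated and 298, 319 and 321 in control libraries, a log2 fold change of -0.18 that missed the threshold (limma adjusted p = 0.394; 0.14 with upper-quartile scaling). Treated replicate 1 was the lowest of its group for kynu and the highest for afmid. The brain serotonin synthesis gene tph2 fell, from 232 ± 62.0 to 55.6 ± 5.30 (limma adjusted p = 0.000139), beside neuron markers, of which 11 of 11 fell. The other gene ID that fell was 1 of the 2 named nadsyn1, at -0.92, while the second rose, at 1.88. The immune tryptophan dioxygenase gene ido1 held 15.7, 73.1 and 126 in treated and 0, 0 and 4.23 in control libraries. The remaining genes that did not pass were aadat, tph1a and tph1b. In the same larvae 3 of 8 macrophage markers (37.5%) rose, 1 (12.5%) fell and 4 did not pass. Of all tested genes, 35.0% rose and 34.3% fell. The summed level of the macrophage list was 788 to 940.4 in treated and 361 to 369 in control libraries. The part of macrophages in the level of ido1 and kmo was not tested.

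Set in order of log2 fold change, the members ran fah, haao, hpda, tat, hgd, tdo2b, kmo, gstz1 and tdo2a. For 7 of the 8 pairs of neighbours in this order, the within-library ratio of the 2 genes overlapped between treated and control libraries. The exception was hpda and tat, by a very narrow gap. The lowest treated log2 ratio was -0.239 and the highest control one -0.243. The ends of the order, fah and tdo2a, differed by 2.49 in log2 fold change (two-sided exact permutation p = 0.1, the smallest possible). The order was set by these same values, so close neighbours and distant ends follow in part from the sorting. That p-value makes no allowance for the choice of the pair.

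Apart from the pseudocount of 1, a ratio of 2 genes within a library does not depend on scaling between libraries. Members were therefore also set against the reported member before them in their route, and tdo2a against tdo2b. In the tryptophan route afmid lies between tdo2b and kmo, and kynu between kmo and haao, so those ratios skip a step. The ratios with hpda leave out its duplicate hpdb, whose group means were higher (4134 against 955 in treated, 506 against 78.3 in control libraries). The rise was 8.16-fold for hpdb, 12.2-fold for hpda and 8.84-fold for tat, so the ratios with hpda do not describe the whole step. Along the tyrosine route the log2 ratio of hpda to tat was higher in treated libraries by 0.48 and that of fah to gstz1 by 2.27, while hgd to hpda and gstz1 to hgd differed by -0.62 and -1.32. In the tryptophan route haao to kmo was higher by 1.47, kmo to tdo2b differed by -0.52 and tdo2a to tdo2b by -1.37. The groups did not overlap in 6 of these 7 ratios, each with a two-sided exact permutation p of 0.1 and an adjusted p of 0.117 over the 7. For kmo to tdo2b they overlapped (exact permutation p = 0.7, adjusted p = 0.7), and the difference was 0.16 without treated replicate 1. That of tdo2a to tdo2b was -0.80 without it. With 3 libraries a group, none of these differences could pass the threshold. The gap between groups was narrow for hpda to tat, as given above. It was narrow too for hgd to hpda, with a highest treated log2 ratio of 1.99 and a lowest control one of 2.04. How often ratios of other gene pairs separate was not computed, so the count of 6 says nothing particular of these routes.

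Among treated larvae single members differed between libraries, as did many other genes. Treated replicate 1 held less hpda, fah, tdo2a, kmo and haao than both other treated libraries, more hgd, gstz1 and tdo2b, and an intermediate level of tat. It departed by over 1.5 times from the mean of treated replicates 2 and 3 upwards in tdo2b and downwards in fah, kmo and haao, and also in tdo2a. That is 5 of 9 members (55.6%), against 37.1% of all tested genes and 25.9% of the 27 liver marker gene IDs. In the lists around amino acid breakdown it was 47.4% of 116 other tested gene IDs. In the control group, replicate 3 was the highest for tat, hpda, hgd, gstz1, fah, tdo2a, tdo2b and haao. The summed liver markers were highest there too, at 10118, against 7663 and 6633 in control replicates 1 and 2. What share of all tested genes was highest in that library is not given here.

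**Figure D2:**
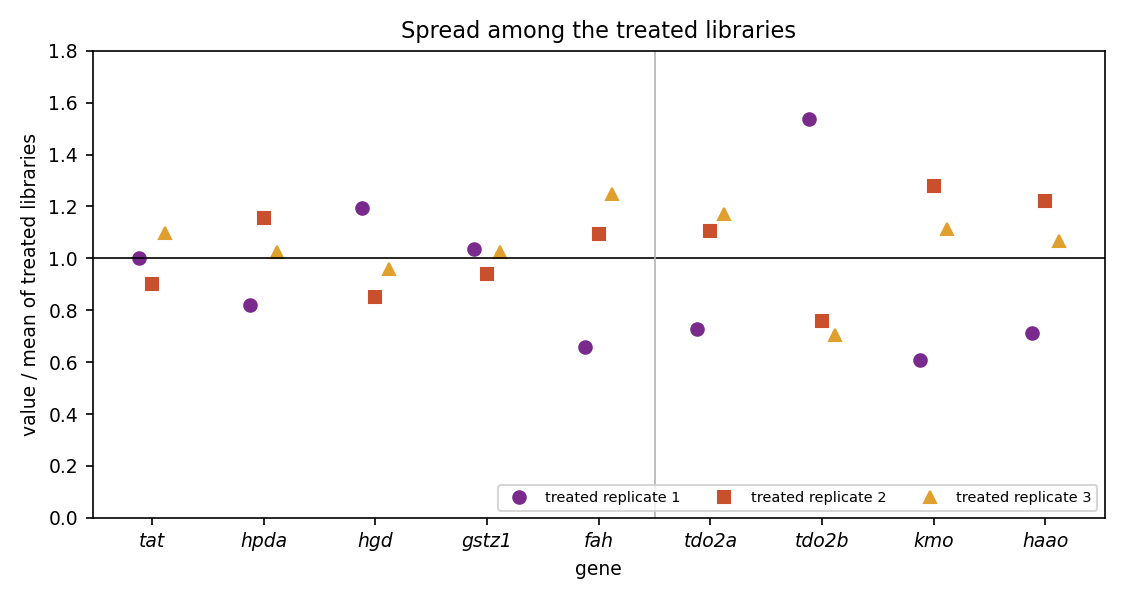
Value of each gene in treated replicates 1, 2 and 3 divided by the mean of the 3 treated libraries (linear axis, line at the mean). Purple circles of treated replicate 1 lie lowest for hpda, fah, tdo2a, kmo and haao and highest for hgd, gstz1 and tdo2b.

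Genes listed as liver markers were higher in the same larvae. Whether other tissues of the whole larva also contributed to their counts was not tested. All 27 liver marker gene IDs rose, and their median log2 fold change was 4.54, against 2.99 for the members; 22 of them exceeded the log2 fold change of fah. The liver fatty acid binding protein gene fabp10a held 19673, 11473 and 11563 normalized counts in treated and 216, 179 and 252 in control libraries. Summed, the liver markers held 296354 to 317941 in treated and 6633 to 10118 in control libraries, 37.8-fold more. Per 100 normalized counts of liver markers, the members held 14.1 ± 0.317 in control and 2.43 ± 0.0684 in treated larvae (SD, n = 3 per group; two-sided exact permutation p = 0.1). None of the liver markers was at 0 in all libraries of a group. Markers of other digestive organs were higher too. All 7 intestine markers rose (median log2 fold change 4.36), with a summed level of 57919 to 65892 in treated and 3290 to 4282 in control libraries. All 6 tested exocrine pancreas markers rose (median 8.02), from sums of 492 to 806 in control to 85156 to 180049 in treated libraries. The part of the liver, intestine and pancreas in the members' values was not tested.

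When each library was set against its own summed liver markers, all 9 members were lower in treated larvae. The log2 differences ran from -3.81 for tdo2a (SE 0.27) to -1.32 for fah (SE 0.33), with limma adjusted p of 1.62e-11 to 0.000747. On that scale 97.8% of all tested genes were lower too and 0.216% were higher, so the count says nothing particular of the members. The apolipoprotein gene apoa2 made up 45.9% to 53.5% of the summed liver markers in treated and 15.0% to 17.0% in control libraries. With the median over the liver markers in place of the sum, 8 of 9 members passed as lower. They ran from -3.11 for tdo2a to -0.78 for haao (limma adjusted p = 8.69e-11 and 0.0321). The gene fah did not pass (-0.62, limma adjusted p = 0.087). The share of all tested genes lower on that scale is not given here, so this count too says nothing particular of the members.

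**Figure D3:**
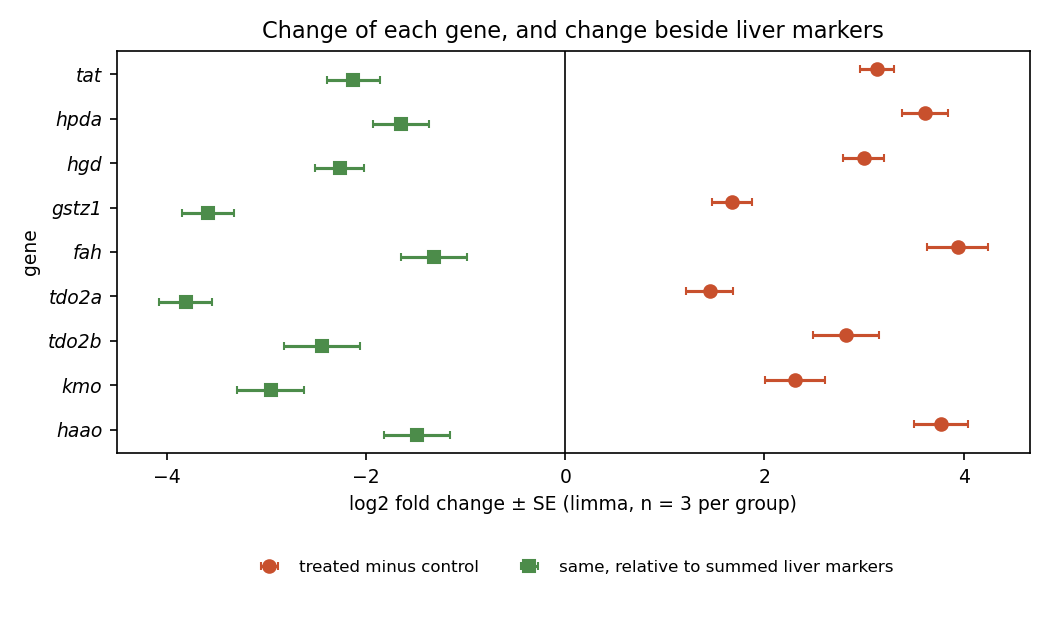
Log2 fold changes of the 9 genes, treated minus control, with standard errors (limma, n = 3 per group), as orange circles, and the same after each library was set against its summed liver markers, as green squares. The circles lie between 1.45 and 3.94 and the squares between -3.81 and -1.32. The order of genes is the same by construction, because every gene of a library was shifted by the same amount.

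Transcription factors of liver identity went both ways. Of 12 tested, 7 (58.3%) rose and 4 (33.3%) fell, against 35.0% and 34.3% of all tested genes. The remaining 1, nr5a2, did not pass, and the median log2 fold change of the 12 was 0.72. Among the 12, hnf4a, a master regulator of hepatocyte metabolism, rose 3.15-fold and cebpa, which controls liver metabolic genes, 2.43-fold (limma adjusted p = 0.000217 and 0.000103). The falling genes were prox1a, onecut1, foxa2 and foxa1, at log2 fold changes of -1.67, -1.51, -1.04 and -0.98. The naming rule did not cover these factors, which were chosen with their values known. Kidney tubules also break down amino acids. Beside 35.0% and 34.3% of all tested genes, 9 (64.3%) of 14 pronephros markers rose and 2 (14.3%) fell (median 1.26). Their summed level was 6691 to 8043 in treated and 2741 to 3380 in control libraries. The part of the kidney in the members' values was not tested.

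Genes in lists around amino acid breakdown beyond the aromatic routes were mostly higher as well. In 7 lists of such genes 88 gene IDs were tested, of which 62 (70.5%) rose, 6 (6.82%) fell and 20 did not pass, against 35.0% and 34.3% of all tested genes, with a median log2 fold change of 1.46. Together with the lists around tyrosine and tryptophan, these made up 9 lists with 132 symbols, of which 118 matched the table. Over all of them 116 gene IDs were tested, 82 (70.7%) rose, 8 (6.90%) fell and 26 missed the threshold. Their median log2 fold change was 1.38. Without treated replicate 1, 13 of the 116 fell. The lists also hold synthesis genes, tph2 and glula among them, so not all 116 belong to breakdown.

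The histidine, proline and glycine lists stood near the members in median. All 3 tested histidine genes rose (median 2.98), among them ftcd 4.48-fold and uroc1 8.68-fold, which encode the last enzyme of the route and urocanase. In the proline and hydroxyproline list 4 of 5 rose (median 3.28), oat 16.1-fold and aldh4a1 19.1-fold (limma adjusted p = 4.32e-06 and 4.77e-06), and prodhb did not pass (adjusted p = 0.0696). Among glycine, serine and threonine genes 18 of 21 rose (median 2.36), including hao1, which oxidises glycolate to glyoxylate, 23.3-fold, and shmt2, the mitochondrial serine hydroxymethyltransferase, 14.4-fold. The genes grhpra and gcsha did not pass (log2 fold changes of 0.41 and 0.48, limma adjusted p = 0.114 and 0.0898). In that list tdh2 fell 22.5-fold, from 2153 ± 651 to 95.7 ± 116; it held 229.8 in treated replicate 1 and 25.9 and 31.5 in the other treated libraries, and without treated replicate 1 the fall was 75.1-fold.

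The methionine and cysteine list showed a like picture, with 12 of 15 genes up (median 2.18). The genes ahcy and gnmt, whose enzymes act on S-adenosyl compounds, rose 11.7-fold and 14.6-fold (limma adjusted p = 8.58e-07 and 1.22e-06). Of 6 lysine genes 4 rose (median 1.07), aldh7a1 3.15-fold and gcdha 3.83-fold.

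The branched-chain list and the list of transaminases, glutamate and urea cycle genes were mixed. In branched-chain amino acid breakdown 15 of 25 rose and 3 fell (median 0.65). The late-step genes aldh6a1 and mut rose 3.13-fold and 2.90-fold. Against that, ppm1k, the phosphatase that activates the branched-chain dehydrogenase, fell 3.90-fold (limma adjusted p = 1.67e-05). The other falls were bcat1, 6.77-fold (limma adjusted p = 1.76e-05), and bcat2, 1.32-fold (limma adjusted p = 0.0284). The dihydrolipoamide dehydrogenase gene, entered under its zebrafish symbol dldh after the values were seen, is among the rises (2.59-fold, limma adjusted p = 3.81e-05). In the list of transaminases, glutamate and urea cycle genes 6 of 13 rose and 2 fell (median 0.40). The glutamate dehydrogenase genes glud1a and glud1b rose 5.67-fold and 5.45-fold, whereas glula, a glutamine synthetase gene also used by glia, fell 2.71-fold (limma adjusted p = 0.000232). Its duplicate glulb rose 1.57-fold (limma adjusted p = 0.0351). The urea cycle gene cps1 averaged 1.87 normalized counts in treated and 10.4 in control larvae and was too low to be tested. In the same cycle nags fell, with overlap between groups, at a log2 fold change of -2.69 (limma adjusted p = 0.0375). It held 26.9, 1.12 and 0.955 in treated and 21.1, 55.6 and 24.0 in control libraries. The genes otc, asl and arg1 did not pass, at -1.54, 0.19 and 0.40 (limma adjusted p = 0.0544, 0.489 and 0.573). By contrast, arg2 rose, at 2.29 (limma adjusted p = 0.000469). Neuron markers took 0.0431% ± 0.0126 of normalized counts in treated and 0.439% ± 0.0106 in control larvae (SD, n = 3 per group), and their part in the falls of glula and tph2 was not tested.

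**Figure D4:**
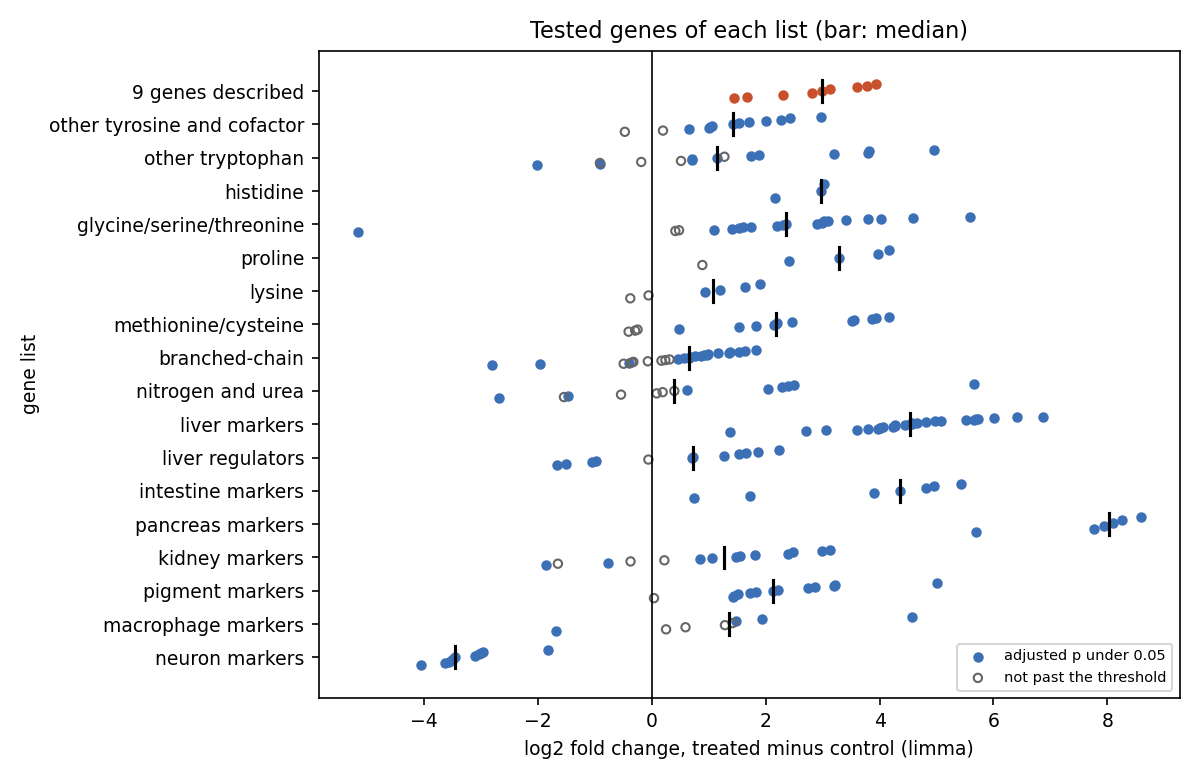
Log2 fold changes (treated minus control, limma) of every tested gene in the lists around amino acid breakdown and of cell type markers. A bar marks each median, and filled points passed an adjusted p of 0.05. The 9 genes lie between 1.45 and 3.94, the liver, intestine and pancreas markers have medians of 4.54, 4.36 and 8.02 and the neuron markers one of -3.45.

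The genes whose profile over the 6 libraries was nearest to the members' mean were sought among 15470 named genes that averaged 50 normalized counts or more. Likeness was measured as the root mean square difference of centred log2 values. The 5 nearest were elmo3, dhrs13a.2, dhdhl, dnajc22 and flnca, with differences of 0.08, 0.10, 0.10, 0.11 and 0.12. For elmo3, a gene of cell engulfment and migration, the treated libraries held 150.2, 164 and 176 normalized counts and the control libraries 24.1, 17.8 and 25.4. Single members lay farther from the mean of the other 8, between 0.21 for tat and 0.81 for tdo2a. The 5 nearest genes were picked for closeness out of 15470 and the members were not, so this contrast follows from the choice.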

How the data were processed

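The deposited file holds normalized counts per gene (a signal: gene counts divided by 1 factor per library, by the authors). The genome build was GRCz11, and the tools were Salmon 1.9.0, STAR 2.7.10a, DESeq2, fastp 0.23.2 and bcl2fastq 2.20.0.422, per the submitters' processing notes, which state neither their roles nor filters nor how shared reads were handled. Coordinates and sequences were not used here.

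Tests covered the 20352 genes that averaged 10 normalized counts or more; the other 4118 were left out. The limma package (3.58.1, R 4.3.3; intensity trend, two-sided, no covariate) was fitted to log2(normalized count + 1), and p-values were adjusted over all tested genes by the Benjamini-Hochberg method (threshold 0.05). A positive log2 fold change means higher in treated larvae; the pseudocount of 1 understates changes of low genes. Folds are ratios of group means. All other p-values are exact permutation tests over libraries.

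Whole reads were recovered in 5 libraries by dividing values by the library's smallest step (100% of values within 0.01 of a whole number). Control replicate 1, whose step lay too near 1 for that check, entered no count test. These reads served edgeR 4.0.16 and DESeq2 1.42.0 as alternatives. The limma, edgeR and DESeq2 steps were tested on simulated counts. Only a small part of the genes was changed in that simulation, whereas 69.3% of tested genes passed in these data. It therefore does not show how the steps behave under so wide a change.

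One gene that the rule found is not reported here. Members and lists were chosen with earlier results of these data known. Named by rule from each list of other routes were up to 2 rises and 1 fall with the smallest p and no overlap between groups. Genes named beyond these were chosen with their values known, and not each of them is marked so. Plots used matplotlib 3.10.9 under Python 3.11.15.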

Additional observations from a re-analysis of the deposited data

How the results depend on the processing

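Over 18 alternatives (other pseudocounts, filters, scalings and limma options, a replicate block, 6 fits that each leave out 1 library, and edgeR and DESeq2 on recovered reads of 5 libraries) all 9 members stayed higher in treated larvae and past the threshold in 162 of 162 member values, with a largest adjusted p of 0.00404 (limma, tdo2a without control replicate 2). Upper-quartile scaling shifted the median of all genes by 0.32 and that of the members to 3.32, and 59.9% of calls were then rises, against 50.5%. Of all tested genes, 8493 of 20352 rose with that scaling and 6260 of 20301 without treated replicate 3. The alternatives refit the same 6 libraries, so the number of member values adds no samples. Same-numbered libraries did not deviate together (correlations of -0.02, -0.06 and 0.05, so not every library correlates best with its own number), and the replicate block kept all 9 rises (largest limma adjusted p = 0.000618). Relative to liver markers, fah missed the threshold with the median of the markers (log2 difference -0.62, limma adjusted p = 0.087). That choice raises every member by the same amount. The other 80 of 81 values stayed below 0 and past the threshold. As 97.8% of all tested genes were lower beside the summed markers, that count says nothing particular of the members. With each library left out in turn, the difference of kmo to tdo2b lay between -0.88 and 0.16, positive only without treated replicate 1. Alternatives for the other routes were added after seeing the data: the 82 rises lay between 76 and 89 over all of them, the 8 falls lay between 6 and 13 with libraries left out and numbered 14 with arrayWeights, and afmid turned to 0.14 with upper-quartile scaling. Two-sided exact tests of 3 against 3 libraries cannot go below p = 0.1, which limits the ratios and the share of reads.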
